A study of Rattus norvegicus with 6 samples.

Results

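The annotated long noncoding RNAs (lncRNAs) of rat condylar cartilage were taken as the lncRNA transcripts that carry an Ensembl rat transcript identifier and had a mean of at least 0.1 FPKM over the 6 libraries. FPKM, fragments per kilobase of transcript and per unit of mapped fragments, is a level corrected for transcript length and library depth. The lncRNA table held 15530 transcripts, of which 3303 carried an Ensembl identifier, and 617 of these passed the level rule. The other lncRNA transcripts were assembled by the authors from the reads of the same libraries. Of the annotated transcripts that did not pass, 2007 were listed as absent in all 6 libraries and 679 were present at a lower mean. The member just inside the rule averaged 0.101 FPKM, and the transcript just outside it averaged 0.0994 FPKM. The 617 members lay in 528 assembled genes on 21 chromosomes.

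The UAC group (3 libraries) was condylar cartilage of female Sprague-Dawley rats that had carried a unilateral anterior crossbite for 8 weeks, a dental device that alters the bite and is used as a model of temporomandibular joint osteoarthritis. The CON group (3 libraries) was condylar cartilage of control rats of the same strain, sex and age, collected at the same time. All rats were 6 weeks old at the start, and ribosomal RNA was removed from total RNA before sequencing. The sources used here do not say how many rats contributed to a library, so p-values measure the spread between these libraries, which may be technical.

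LncRNAs are transcripts without a long conserved reading frame. Some stay in the nucleus and act on chromatin or nuclear bodies, some serve as precursors of microRNAs or small nucleolar RNAs, and some are transcribed beside a protein-coding gene from a shared promoter region. Most are present at lower levels than messenger RNAs, and for most annotated rat lncRNAs no function has been described.

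Gene counts summed to between 71524713 and 86523541 per UAC library and between 80960444 and 85923949 per CON library. Marker genes of chondrocytes were found for 9 of 9 listed symbols, and their summed FPKM ranged from 1480 to 3122 in UAC and from 1875 to 2892 in CON libraries. Markers of other tissues were also present. Neutrophil markers summed to 2106 to 3758 FPKM in UAC and 1819 to 2111 FPKM in CON libraries, and osteoblast and osteoclast markers to 3550 to 4134 FPKM in UAC and 4301 to 4966 FPKM in CON libraries. Skeletal muscle markers (5 of 10 found) summed to 248 FPKM in UAC library 1 against 24.0 and 28.8 FPKM in the other UAC libraries, and to 72.5 to 164 FPKM in CON libraries. In such bulk samples, fewer cells of a type and less RNA per cell cannot be told apart.

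Most members had only a database name. A genomic clone name (such as AABR07051639) was given to 526 members. Of the rest, 40 had an uncharacterized locus number and 44 were described as like or similar to a protein or its gene. The remaining 7 carried other names, among them Tug1, Kantr, Rfwd3, Ly6l and AA926063. These 7 were not sorted by whether the symbol is that of a protein-coding gene. Of 83 symbols of well-known lncRNAs in 8 lists (nuclear body RNAs, small nucleolar RNA hosts, imprinted, X-inactivation, microRNA hosts, widely expressed, HOX cluster and short structured RNAs), only Tug1 was a member under its own symbol. The lists therefore describe this annotation set through 1 transcript.

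The annotated transcripts were spliced more often than the intergenic and intronic assembled ones, less often than the exon-overlapping ones, and lower in level than all 3. Their median length was 906 bases and their median exon number 2, and 33 (5.35%) had a single exon, against 79.7% of intergenic assembled, 68.6% of intronic assembled and 1.49% of exon-overlapping assembled transcripts. The median level was 0.392 FPKM (quartiles 0.196 and 0.918) for annotated transcripts, against 1.38 FPKM for intergenic, 1.66 FPKM for intronic and 1.99 FPKM for exon-overlapping assembled transcripts. A mean of at least 1 FPKM was reached by 136 members (22.0%), compared with 78.5%, 82.8% and 82.8% of those assembled classes.

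The classes passed the level rule at very different rates, which bears on these medians. It kept 18.7% of all annotated transcripts but 98.6% of intergenic, 97.8% of intronic and 98.1% of exon-overlapping assembled transcripts, since an assembled transcript enters the table only through reads of these libraries. The median read coverage was 2.57-fold for a member, against 9.11-fold, 11.0-fold and 13.1-fold in the assembled classes. All 6 libraries contained 425 members (68.9%), and 7, 13, 33, 62 and 77 members were found in 1, 2, 3, 4 and 5 libraries. The median SD of log2(FPKM + 0.1) within groups was 0.562 for members, and 0.468, 0.317 and 0.421 for intergenic, intronic and exon-overlapping assembled transcripts.

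**Figure D1:**
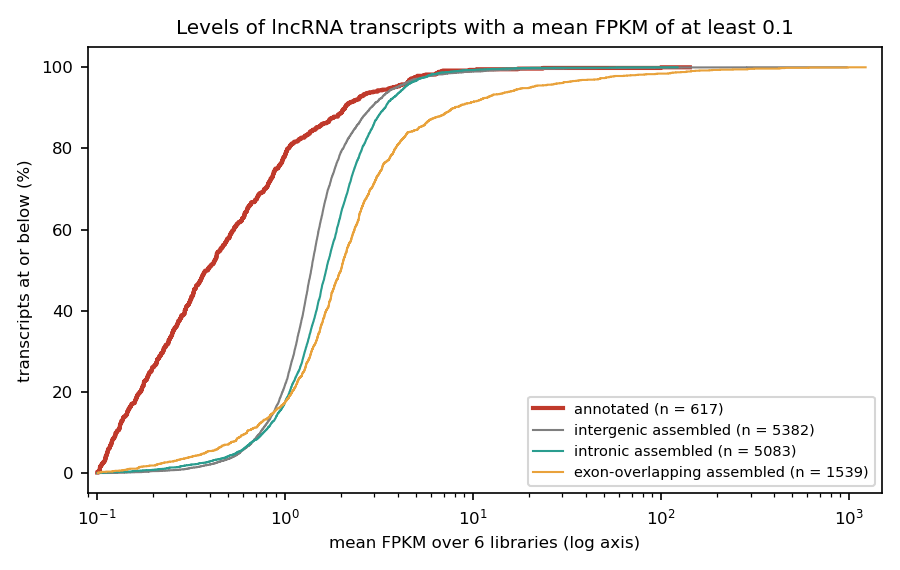
Share of transcripts at or below each level (y axis, percent) against mean FPKM over the 6 libraries (x axis, log scale) for the annotated transcripts and the 3 assembled classes, all with a mean FPKM of at least 0.1. The curve of the 617 annotated transcripts lies left of the others, with a median of 0.392 FPKM against 1.38 to 1.99 FPKM.

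In position, 526 members did not overlap a protein-coding gene, 26 overlapped one on the opposite strand, 21 overlapped one on the same strand, and 44 were placed by the authors' assembly inside a gene that the files type as protein coding. For the 526 without overlap, the nearest protein-coding gene lay at a median distance of 23282 bases, with 173 within 10000 bases and 105 beyond 100000 bases. The sources used here do not give whether the counting used the strand of the reads, so reads of a member and of a gene that overlaps it cannot be told apart. The genome build of the file coordinates is likewise not given in the sources used here.

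A few members carried a large share of the signal. The 10 most abundant held 41.4% of the summed FPKM of all 617 and the highest pair held 30.4%, whereas 5 members averaged at least 10 FPKM. The highest was ENSRNOT00000093096 of AC134224 (chr1:221154561-221156910, minus strand, 1 exon), at 67.2, 358 and 214 FPKM in UAC and 76.2, 64.9 and 75.8 FPKM in CON libraries. UAC libraries 2 and 3 were above all CON libraries and UAC library 1 lay within their range (difference 1.26 ± 0.65 (SE) on the log2(FPKM + 0.1) scale, limma adjusted p = 0.697). The assembled gene that holds this transcript, with 8 transcripts in all, stood at 1037, 1487 and 1208 FPKM in UAC and 1264, 1064 and 1291 FPKM in CON libraries, and differed by 0.01 on the log2 scale (edgeR). The groups thus overlapped both for the transcript and for its gene.

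The member with the next highest level was ENSRNOT00000076920 of AABR07039356 (chrX:74333329-74334974, minus strand, 4 exons), which overlaps LOC680227 on the opposite strand. It had 109, 89.6 and 92.2 FPKM in UAC and 103, 97.9 and 109 FPKM in CON libraries, a difference of -0.10 ± 0.29 (SE, limma adjusted p = 0.942), and was the most even of the 3 highest. Among the other abundant members, the single-exon AABR07019209 on chromosome 15 had 7.99, 10.1 and 11.4 FPKM in UAC and 10.8, 11.0 and 11.8 FPKM in CON libraries. AABR07037528 (nearest gene Apex2, a DNA repair nuclease) had 6.81, 7.41 and 6.51 FPKM in UAC and 5.65, 6.72 and 6.36 FPKM in CON libraries. AABR07021544 on chromosome 13 had 6.23, 7.13 and 6.06 FPKM in UAC and 6.47, 7.45 and 7.43 FPKM in CON libraries. In these 3 the groups overlapped, and the limma differences lay between -0.20 and 0.15.

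Members named after protein-coding genes also belonged to the 10 most abundant. LOC102554012, described as PEX-like, had 12.2, 8.99 and 4.27 FPKM in UAC and 3.36, 12.5 and 16.2 FPKM in CON libraries. LOC100912578, described as stress-70-like, had 7.65, 4.87 and 7.37 FPKM in UAC and 7.65, 5.59 and 8.44 FPKM in CON libraries. LOC688442, similar to limkain b1, had 6.55, 4.92 and 5.70 FPKM in UAC and 5.60, 5.50 and 11.1 FPKM in CON libraries. The groups overlapped in all 3. Reads of such a locus may be shared with the gene it resembles, so these levels are uncertain.

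The best-studied member was Tug1, a widely expressed lncRNA that in mouse is needed for male fertility. The transcript ENSRNOT00000089742 (chr14:83881371-83885791, minus strand, 3 exons; nearest gene Morc2 at 3298 bases) had 5.08, 4.12 and 5.20 FPKM in UAC and 4.68, 3.10 and 5.22 FPKM in CON libraries. The groups overlapped, and the difference was 0.17 ± 0.21 (SE, limma adjusted p = 0.825). Kantr, named for its place beside the gene of the histone demethylase Kdm5c, had 2 members on chromosome X. ENSRNOT00000082634 had 1.66, 2.99 and 2.15 FPKM in UAC and 1.22, 1.92 and 1.58 FPKM in CON libraries, and ENSRNOT00000086786 had 1.94, 2.07 and 1.41 FPKM in UAC and 2.72, 2.45 and 1.99 FPKM in CON libraries. Their differences had opposite signs (0.48 and -0.39), neither passed an unadjusted p of 0.05, and the gene as a whole differed by -0.02.

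The main comparison asked which annotated lncRNAs differed between UAC and CON cartilage. With limma on log2(FPKM + 0.1) and Benjamini-Hochberg adjustment over all 12621 transcripts tested, 1 member (0.162%) had an adjusted p under 0.05, LOC102549714, against 0.00792% of all transcripts tested, which is the same single transcript. The next smallest adjusted p of a member was 0.269. At an unadjusted p under 0.05 there were 32 members (5.19%), compared with 7.27% of all transcripts tested. The thresholds in the study's methods, an unadjusted p under 0.05 with an absolute log2 difference above 1, were passed by 15 members in the higher direction (2.43%, against 1.93% of all transcripts) and by 5 in the lower direction (0.810%, against 0.864% of all transcripts). These shares lie near the background. Among all transcripts the split was 243 higher and 109 lower, and it was 191 higher and 148 lower after median-ratio scaling of the libraries. Among the members that scaling gave 14 higher and 7 lower.

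All 3 UAC libraries were above all 3 CON libraries in 50 members (8.10%, against 11.1% of all transcripts) and below them in 30 members (4.86%, against 3.61% of all transcripts). The groups did not overlap in 18 of the 20 members past the study's thresholds, 13 higher and 5 lower. With 3 libraries per group those thresholds themselves favour groups that do not overlap, so this count adds no support. The median difference of the members was 0.0162 on the log2 scale, with 316 above and 301 below 0, and that of all transcripts tested was 0.0946. The count of lower members rested on single libraries: leaving out UAC replicate 1 gave 21, leaving out UAC replicate 2 gave 9, and leaving out CON replicate 2 gave 10.

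At the level of assembled genes, edgeR's quasi-likelihood test on counts gave no call among the 524 member genes that were tested, with a smallest adjusted p of 0.287. The background was 0.0196% of all genes tested. An unadjusted p under 0.05 was reached by 36 member genes (6.87%, against 9.08% of all genes), and DESeq2 called 12 of the 475 to which it gave an adjusted p (2.53%, against 1.22% of all genes with one). The study's thresholds were passed by 16 member genes in the higher (3.05%, against 1.2% of all genes) and 5 in the lower direction (0.954%, against 0.681% of all genes). Of the members past these thresholds, 10 higher and 2 lower ones passed them at the gene level too.

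**Figure D2:**
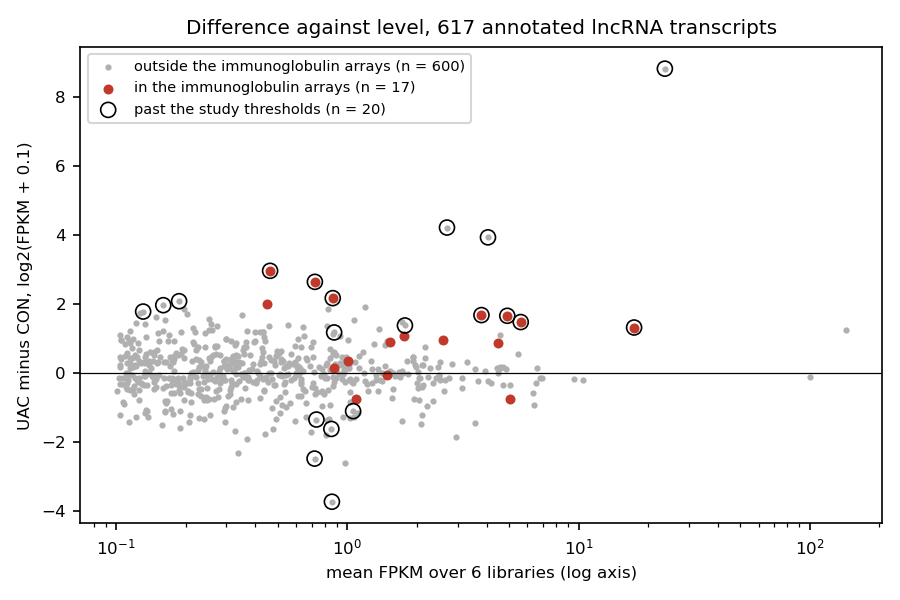
Difference UAC minus CON on the log2(FPKM + 0.1) scale (y axis) against mean FPKM over the 6 libraries (x axis, log scale) for the 617 members, with the 17 members in immunoglobulin arrays in red and the 20 past the study's thresholds circled. The single point near 9 is LOC102549714 at 8.83, and 7 of the 15 circled points above 0 are red.

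LOC102549714 was the only member called across all transcripts. ENSRNOT00000086821 (chr7:60282326-60283912, plus strand, 2 exons) had 66.4, 38.7 and 36.5 FPKM in UAC libraries and was listed as absent (0.0001 FPKM) in all 3 CON libraries (difference 8.83 ± 0.25 (SE), limma adjusted p = 0.000143). The size of this difference depends on the pseudocount, from 5.54 with 1 to 12.1 with 0.01. All CON values are the same floor value, so the SE and p hold no measured spread between CON libraries. The level rule was passed only through the UAC libraries. The transcript belongs to an assembled gene that also holds Lyc2, a lysozyme gene, and that gene was present in every library, at 41.8, 26.4 and 18.9 FPKM in UAC and 18.6, 14.4 and 7.07 FPKM in CON libraries. The gene's lowest UAC FPKM was just above its highest CON FPKM. Its counts, before correction for depth, overlapped, at 8014, 6035 and 3593 in UAC and 4225, 3112 and 1592 in CON libraries. They differed by 1.06 ± 0.41 (SE) on the log2 scale with an edgeR adjusted p of 0.534.

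The summed level of the members was higher in UAC libraries, at 832, 1026 and 863 FPKM, against 669, 667 and 733 FPKM in CON libraries. The means were 907 ± 104 FPKM in UAC and 690 ± 37.5 FPKM in CON libraries (SD, n = 3 each). The groups did not overlap, and the exact two-sided permutation test over the 6 libraries gave p = 0.1, the smallest value that 3 against 3 libraries allow. The difference of 217 FPKM lay mostly in 2 transcripts, those of AC134224 and LOC102549714: without them it was 29.2 FPKM (exact p = 0.5), a comparison chosen after the data were seen. Without the 10 most abundant members the sums were 517, 469 and 458 FPKM in UAC and 445, 445 and 471 FPKM in CON libraries, and the groups overlapped (exact p = 0.3).

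The number of members detected did not separate the groups. It was 566, 559 and 541 in UAC and 558, 546 and 545 in CON libraries (exact p = 0.6). The median FPKM of the members was 0.436, 0.368 and 0.362 in UAC and 0.365, 0.361 and 0.373 in CON libraries.

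**Figure D3:**
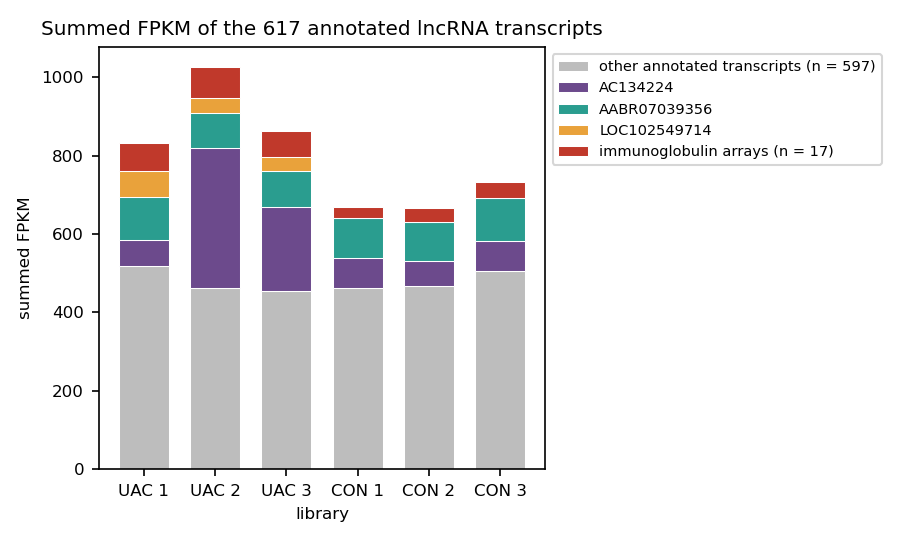
Summed FPKM of the 617 members in each of the 6 libraries (bars from 0), split into AC134224, AABR07039356, LOC102549714, the 17 members in immunoglobulin arrays and all others. The bars of UAC libraries reach 832 to 1026 FPKM and those of CON libraries 667 to 733 FPKM, and the AC134224 segment is largest in UAC library 2 (358 FPKM).

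Members within immunoglobulin gene arrays were higher in UAC libraries in most cases. Immunoglobulin genes encode antibody chains and are arranged as long arrays of variable segments, which are joined and transcribed in B cells and their plasma cell progeny. Arrays were taken as runs of at least 5 genes annotated with immunoglobulin terms and with gaps of at most 1000000 bases, a definition made after the values were seen, so the counts that follow are a description. They held 17 members: 8 in the heavy chain array (chr6:138054641-143768985), 7 in a kappa-like array on chromosome 3 (chr3:16413080-20696163), 1 in an array on chromosome 4 (chr4:101531378-103761881) and 1 in the lambda array (chr11:85042348-86096397). All 17 had 2 exons and a length of 340 to 1053 bases, and 320 of the other 600 members also had 2 exons.

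The 17 members had a median difference of 1.08 on the log2 scale, 14 of 17 above 0, against 0.0946 for all transcripts tested. It lay between 0.700 and 1.61 in the alternatives run, scaling included. An unadjusted p under 0.05 was reached by 8, all higher, against 7.27% of all transcripts in either direction. The study's thresholds were passed by 7 in the higher and 0 in the lower direction, against 1.93% and 0.864% of all transcripts. No member in the arrays reached an adjusted p under 0.05 (smallest 0.372, limma). DESeq2 on gene counts called the genes of AABR07051592, AABR07051639, AABR07034718, AABR07065818 and AABR07065780 (adjusted p 0.000379 to 0.0466), against 1.22% of all genes. For the same genes edgeR gave adjusted p-values of 0.448 to 0.500. Among the 600 members outside the arrays the median was 0.00, with an unadjusted p under 0.05 in 12 higher and 12 lower members, and with 8 higher and 5 lower past the study's thresholds. The 17 together summed to 71.3, 78.0 and 66.8 FPKM in UAC and 28.2, 37.7 and 42.5 FPKM in CON libraries, a ratio of means of 1.99, given as a description because the arrays were defined after the values were seen.

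The B and plasma cell markers Jchain, Mzb1, Cd79a, Cd79b and Ms4a1 (5 of 5 found) moved with the arrays. They summed to 179, 179 and 124 FPKM in UAC and 69.5, 85.8 and 109 FPKM in CON libraries. Their part in the result was not tested. Of the 138 tested genes annotated in the same arrays, 54 passed the study's thresholds in the higher and 0 in the lower direction, against 1.2% and 0.681% of all genes tested, and their median log2 difference was 1.28.

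AABR07065780 in the heavy chain array was the most abundant of the 17. ENSRNOT00000084080 (chr6:141112169-141112676, minus strand) had 24.5, 27.1 and 21.0 FPKM in UAC and 5.15, 10.7 and 15.7 FPKM in CON libraries, with every UAC library above every CON library (1.32 ± 0.38 (SE), limma adjusted p = 0.671). As the sole transcript of its gene it rested on 781, 1033 and 664 counts in UAC and 196, 384 and 590 counts in CON libraries. In the same array, AABR07065818 had 6.79, 5.48 and 5.04 FPKM in UAC and 2.74, 1.10 and 1.64 FPKM in CON libraries (1.68 ± 0.31, limma adjusted p = 0.423). The groups were apart for both. AABR07065772, which missed the fold threshold, had 6.01, 5.92 and 5.34 FPKM in UAC and 3.71, 2.19 and 3.72 FPKM in CON libraries (0.86 ± 0.21).

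On chromosome 3, AABR07051639 (ENSRNOT00000078895, chr3:18562148-18562765) had 7.01, 10.1 and 7.70 FPKM in UAC and 1.94, 3.49 and 3.44 FPKM in CON libraries, and had the smallest p in the arrays (1.48 ± 0.25 (SE), limma adjusted p = 0.372). ENSRNOT00000089977 of AABR07051592 had 8.30, 8.02 and 5.97 FPKM in UAC and 1.34, 2.59 and 3.25 FPKM in CON libraries (1.66 ± 0.32, limma adjusted p = 0.427). For both, the lowest UAC value exceeded the highest CON value. In the lambda array, AABR07034718 had 0.814, 1.19 and 0.686 FPKM in UAC libraries, against 0.0925 FPKM in CON library 1 and absence in CON libraries 2 and 3, from 37, 64 and 31 counts in UAC and 5, 0 and 0 counts in CON libraries. It passed the level rule only through the UAC libraries, as its CON mean was 0.0309 FPKM.

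Not every member in the arrays followed. AABR07051642 on chromosome 3 had 1.47, 3.21 and 7.91 FPKM in UAC and 7.11, 7.04 and 3.65 FPKM in CON libraries, with overlapping groups and a difference of -0.74 ± 0.59 (SE). AABR07051555 on the same chromosome had 1.54, 1.88 and 0.964 FPKM in UAC and 2.01, 1.32 and 1.15 FPKM in CON libraries. These arrays hold many near-identical segments, so the split of reads among them is uncertain for each single transcript. The T cell receptor alpha array on chromosome 15, defined the same way, held 2 members, both with differences above 0 (median 0.62). In 1 of them every UAC library was above every CON library, and neither passed an unadjusted p of 0.05 (limma). The 4 tested genes of that array had a median log2 difference of 0.67.

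**Figure D4:**
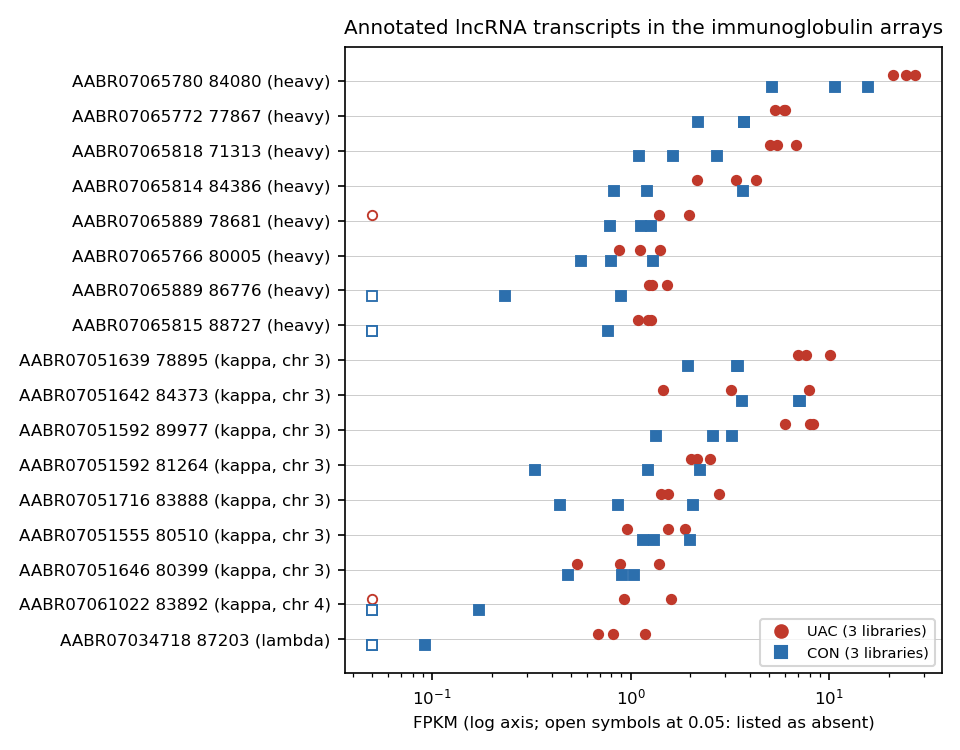
FPKM (x axis, log scale) of the 17 members in the immunoglobulin arrays, 1 row per transcript, with 3 UAC libraries as red circles and 3 CON libraries as blue squares, and open symbols for libraries where the transcript was listed as absent. In 8 rows every UAC library lies right of every CON library, and in 0 rows the reverse holds, against 11.1% and 3.61% of all transcripts tested.

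Outside the arrays, members past the study's thresholds in the higher direction included AABR07065387, described as galactocerebrosidase-like, after the lysosomal enzyme that breaks down galactolipids. ENSRNOT00000078853 (chr6:125276633-125304605, minus strand, 7 exons) had 0.242, 0.583 and 0.281 FPKM in UAC libraries, against absence, 0.016 FPKM and absence in CON libraries 1, 2 and 3. The transcript passed the level rule only through the UAC libraries, as its CON mean was 0.00539 FPKM. Its gene, with 3 transcripts, had 240, 230 and 188 counts in UAC and 48, 41 and 76 counts in CON libraries, which did not overlap (2.09 ± 0.28 (SE), edgeR adjusted p = 0.287). For AABR07028795 (chr17:86636188-86640422, minus strand), named after its gene-level p was seen, the transcript had 2.27, 1.29 and 2.15 FPKM in UAC and 1.07, 0.951 and 1.02 FPKM in CON libraries. The limma difference of that transcript, 0.81, missed the study's fold threshold. The gene that holds it is typed as protein coding. It had 593, 729 and 599 counts in UAC and 339, 287 and 370 counts in CON libraries (1.04 ± 0.13, edgeR adjusted p = 0.287). What share of these counts came from the lncRNA was not measured. The groups of both genes were apart, and both were among the 12 that DESeq2 called.

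Another member was present in 4 libraries and listed as absent in the rest. AABR07044414 (chr20:5213922-5215510, minus strand, 3 exons) had 7.03, 5.61 and 5.49 FPKM in UAC libraries, absence in CON libraries 1 and 2 and 6.20 FPKM in CON library 3. The counts of its gene were 492, 469 and 381 in UAC and 0, 0 and 509 in CON libraries, so that CON library 3 resembled the UAC libraries. The difference had a limma adjusted p of 0.679, and of 0.0370 without CON replicate 3. That choice leaves only CON libraries listed as absent, so the smaller p follows from it and adds no support. With any other replicate left out the limma adjusted p was 0.659 to 0.840.

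The member with the smallest p in the lower direction was AABR07050288 (ENSRNOT00000084042, chr5:159805145-159808300, plus strand, 2 exons), 29743 bases from Arhgef19, which encodes a guanine nucleotide exchange factor. It had 0.131 FPKM in UAC library 1 and absence in UAC libraries 2 and 3, against 1.56, 2.05 and 1.40 FPKM in CON libraries. In counts this was 5, 0 and 0 in UAC and 68, 85 and 61 in CON libraries, and the limma difference was -3.73 ± 0.58 (SE, adjusted p = 0.269). AABR07050288 passed the level rule only through the CON libraries, as its UAC mean was 0.0437 FPKM. The groups were widely apart, the adjusted p did not pass 0.05 with limma or with edgeR (adjusted p = 0.448), and DESeq2 called the gene.

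AABR07016572 (chr14:104708648-104715786, 70640 bases from Sertad2, a transcriptional coregulator) had 0.785, 0.356 and 0.804 FPKM in UAC and 1.35, 1.11 and 1.94 FPKM in CON libraries. Each UAC library was below each CON library (-1.10 ± 0.41 (SE), limma adjusted p = 0.679). LOC102550026 on chromosome 5 had absence, 0.958 FPKM and absence in UAC libraries 1, 2 and 3, and 1.09, 1.08 and 1.20 FPKM in CON libraries. Here UAC library 2 came close to the CON libraries, and the SE of the difference of -2.48 was 1.0. AABR07073453, 86 bases from Lrrfip2 on chromosome 8 and named after its DESeq2 call was seen, had 0.676, 0.374 and 0.629 FPKM in UAC and 1.0, 0.982 and 1.39 FPKM in CON libraries.

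A member and the assembled gene it belongs to did not always move together. For 362 members the transcript was the only one of its gene, and 255 shared a gene with other transcripts. Over the 6 libraries the median SD of log2(FPKM + 0.1) was 0.551 for the sole transcripts. For the 44 members merged with a protein-coding gene it was 0.641, against 0.177 for the genes that held them, and for the other 211 shared members it was 0.785, against 0.415 for their genes. Of the members past the study's thresholds, 8 of 11 sole transcripts passed at the gene level too, compared with 3 of 5 in other shared genes and 1 of 4 merged with a protein-coding gene.

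Absence of a transcript was often not absence of its gene. Among the 617 members, 387 library values (10.5%) were listed as absent. Of these, 203 belonged to sole transcripts, whose gene count was then 0, and 184 to members of shared genes. In the shared genes the gene count was 0 for 35 of the 184 absent values and at least 10 for 146 (median 85.5 counts). Absence in at least 1 library with a highest value of at least 1 FPKM was seen in 50 members, 33 of them in shared genes.

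Members merged with a protein-coding gene also differed between libraries where their gene varied less, through absence in the first of these examples and through lower values in the others. LOC100910750, in the gene of the RNA helicase Dhx15, had 6.74 and 9.44 FPKM in UAC libraries 1 and 2 and was listed as absent in UAC library 3 and all CON libraries, while its gene stood at 9.04, 8.39 and 8.39 FPKM in UAC and 8.14, 7.21 and 8.87 FPKM in CON libraries. AABR07044454, in the gene of the GTPase Rab44, had 2.99, 3.30 and 1.50 FPKM in UAC and 0.811, 0.556 and 1.48 FPKM in CON libraries (1.38 ± 0.43 (SE), limma adjusted p = 0.679), while its gene differed by 0.40. AABR07069454, in the gene of Pigy, a subunit of the enzyme that starts glycosylphosphatidylinositol anchors, had 0.255, 0.466 and 0.345 FPKM in UAC and 1.83, 1.47 and 0.749 FPKM in CON libraries (-1.62 ± 0.47, limma adjusted p = 0.671), while its gene differed by 0.01. In none of these genes did the counts pass the study's thresholds.

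Large steps between libraries were also seen without regard to group. AABR07044366, merged with Mdc1, a DNA damage response protein, and named after its values were seen, had 8.41, 0.227 and 7.03 FPKM in UAC and 0.330, 0.320 and 11.2 FPKM in CON libraries, while its gene ranged from 5.13 to 8.01 FPKM. AABR07035955 (nearest gene Galnt17) had absence, 5.54 FPKM and absence in UAC libraries 1, 2 and 3, and 2.53 FPKM, absence and 4.46 FPKM in CON libraries 1, 2 and 3. AABR07058985 on chromosome 4 had 4.62 FPKM in UAC library 1, absence in UAC libraries 2 and 3, and 3.42 FPKM, absence and 2.29 FPKM in CON libraries 1, 2 and 3. The gene that holds AABR07058985 stayed between 4.12 and 5.73 FPKM. That of AABR07035955 did not stay even: it had 501, 917 and 13 counts in UAC and 691, 117 and 769 counts in CON libraries, and was low in UAC library 3 and CON library 2, where the transcript was absent.

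**Figure D5:**
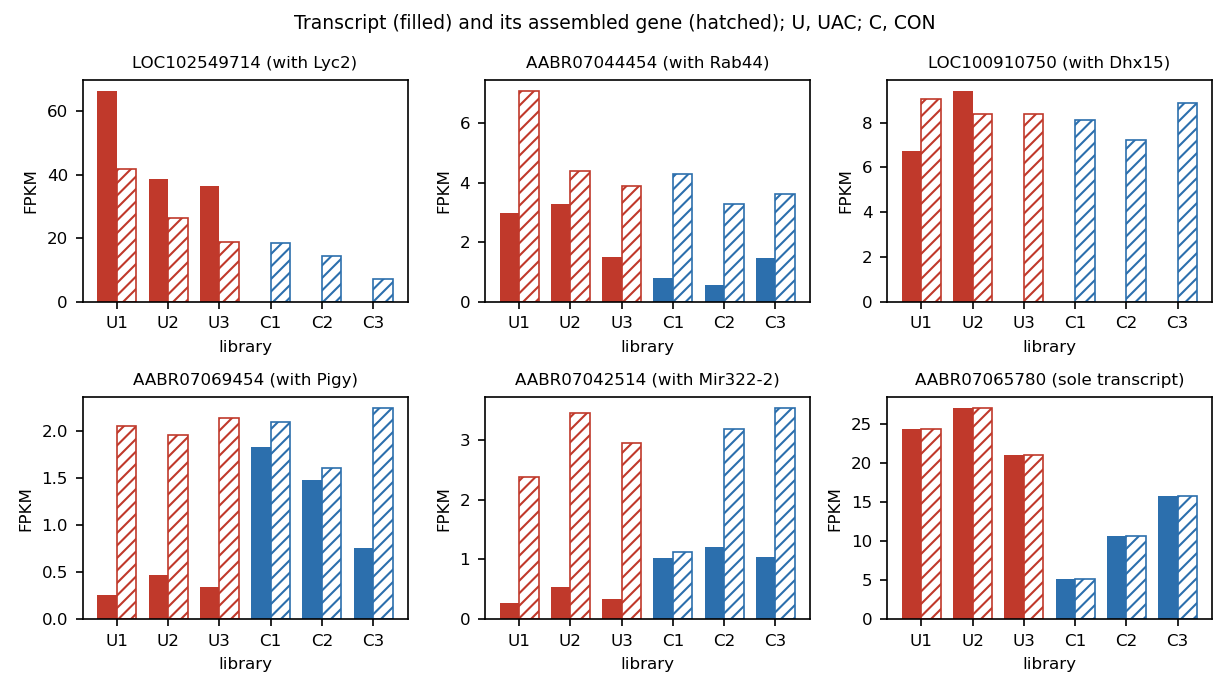
FPKM (y axis, bars from 0) of 6 members (filled) and of the assembled gene that holds each (hatched) in every library, UAC in red and CON in blue. LOC102549714 and LOC100910750 were listed as absent in all CON libraries although their genes stood at 7.07 to 18.6 and 7.21 to 8.87 FPKM there, while the sole transcript of AABR07065780 equals its gene.

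Some members lie close to an assembled gene that includes a microRNA, and on its strand. MicroRNAs are cut from longer primary transcripts and bind messenger RNAs mainly through the seed, bases 2 to 8 of the mature strand. On the same strand and within 10000 bases of an assembled gene that includes a named microRNA there were 11 members, with 12 microRNA names. This set was formed after the values were seen, and 3 of them shared an assembled gene with the microRNA. Distances run to the edge of that assembled gene, so the microRNA itself can lie farther away where its gene is long. The mature microRNAs are shown for the neighbourhoods described next, from RefSeq (build GRCr8), in lower case with the seed in capitals. The microRNAs themselves were not measured in these values.
rno-miR-223-3p: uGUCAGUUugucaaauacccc
rno-miR-322-5p: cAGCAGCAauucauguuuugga
rno-miR-503-5p: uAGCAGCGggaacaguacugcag
rno-miR-351-5p: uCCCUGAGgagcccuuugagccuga
rno-miR-542-3p: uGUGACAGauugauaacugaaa
rno-miR-140-5p: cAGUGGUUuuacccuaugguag
rno-miR-140-3p: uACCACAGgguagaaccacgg
rno-miR-34a-5p: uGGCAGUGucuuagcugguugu

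The member beside the miR-322 cluster was lower in all UAC libraries at the transcript level, though not past an adjusted p of 0.05. AABR07042514 (ENSRNOT00000085679, chrX:158581631-158582269, plus strand, 2 exons) shares its gene with Mir322-2, whose seed is that of 5 mature sequences in the RefSeq table, and lies 2588 bases from Mir503-2, 3318 bases from Mir351-2 and 6260 bases from Mir542-2. RefSeq lists these microRNAs without the suffix of the file names. The transcript had 0.264, 0.539 and 0.339 FPKM in UAC and 1.02, 1.21 and 1.04 FPKM in CON libraries, without overlap (-1.34 ± 0.40 (SE), limma adjusted p = 0.679). Its gene of 3 transcripts had 339, 584 and 413 counts in UAC and 191, 507 and 588 counts in CON libraries, which overlapped, and differed by 0.12.

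The member that shares its gene with miR-223, a microRNA of neutrophils and other myeloid cells, did not follow that gene. AABR07038983 (chrX:65367912-65368639, plus strand, 1 exon) had 1.19, 0.054 and 0.219 FPKM in UAC and 0.540, 0.801 and 0.582 FPKM in CON libraries. Its gene, which includes Mir223 and 4 transcripts, had 15020, 11633 and 10655 counts in UAC and 7689, 7012 and 9473 counts in CON libraries, with the UAC libraries above all CON libraries (0.73 ± 0.16 (SE), edgeR adjusted p = 0.448; DESeq2 called it). Of the neutrophil markers given above, the lowest UAC sum was 2106 FPKM and the highest CON sum 2111 FPKM, and their part in this result was not tested.

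The microRNA miR-140, known from cartilage, lies in an intron of the ubiquitin ligase gene Wwp2. AABR07043772 (chr19:39502153-39537050, plus strand) lay 259 bases from the edge of the joint gene of Wwp2 and Mir140, and its distance to miR-140 itself was not measured. The member had 3.77, 4.25 and 2.25 FPKM in UAC and 4.61, 3.83 and 3.40 FPKM in CON libraries, with overlapping groups (-0.24 ± 0.25 (SE), limma adjusted p = 0.796). Near miR-34a, a target of p53, AABR07050487 (4647 bases away) had 0.843, 0.954 and 0.825 FPKM in UAC and 0.780, 0.833 and 0.813 FPKM in CON libraries. Of this set of 11, 1 member, AABR07042514, reached an unadjusted p under 0.05 (limma), against 7.27% of all transcripts tested. A set of 11 is too small to set this count apart from that share.

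Some members start close to the start of a protein-coding gene on the opposite strand. There were 37 such members within 1000 bases, 0 with an unadjusted p under 0.05 (limma), against 7.27% of all transcripts tested. With so few members this count says little. Examples are AC120486 beside Trim39, with 4.93, 4.16 and 4.32 FPKM in UAC and 4.74, 3.79 and 4.98 FPKM in CON libraries, and clones or loci beside Rps12 (a ribosomal protein), Lig3 (a DNA ligase), Gata2 and Foxd2 (transcription factors). Their median difference was -0.03 on the log2 scale, with 16 of 37 above 0.

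Of the members that the study placed in its competing endogenous RNA network, 3 were in this set, AC134224 (given above) among them, and the choice there was made on these libraries. LOC100910854, described as ZMYND19-like (chr16:67034942-67039461), had 0.223, 1.46 and 0.374 FPKM in UAC and 0.199, 0.150 and 0.167 FPKM in CON libraries, with every UAC library above every CON library and UAC library 2 far above the rest (1.19 ± 0.74 (SE), limma adjusted p = 0.724). As the sole transcript of its gene it had 72, 557 and 118 counts in UAC and 76, 54 and 63 counts in CON libraries, which overlapped, and the gene passed the study's thresholds (1.97 ± 0.71 (SE), edgeR adjusted p = 0.521). AC127084 (chr13:78997305-78999355) had 0.00229, 0.183 and 0.110 FPKM in UAC and 1.16, 0.0493 and 1.13 FPKM in CON libraries, where CON library 2 lay within the UAC range (-1.75 ± 1.04, limma adjusted p = 0.717). In neither transcript did the limma p fall under 0.05.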

How the data were processed

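Condylar cartilage RNA was sequenced in 3 UAC and 3 CON libraries. The authors trimmed reads with cutadapt 1.9, checked them with FastQC, aligned them with Bowtie2 and Hisat2, assembled and merged transcripts with StringTie and Perl scripts, and estimated levels with StringTie and edgeR; no source used here gives the genome build or strand setting. The deposited files hold FPKM per lncRNA transcript with read coverage as a signal, and gene counts beside gene FPKM; absence is listed at 0.0001. Deposited coverage was used as a description, and the authors' own comparisons, which hold fold changes and p-values, and the circular RNA table were not used.

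LncRNA transcripts averaging 0.1 FPKM or more were tested with limma 3.58.1 (trend) on log2(FPKM + 0.1) in R 4.3.3, with Benjamini-Hochberg adjustment over all 12621. Such differences understate changes of low transcripts. Genes were tested with edgeR 4.0.16 (quasi-likelihood, TMM, 30668 genes after the same filter) and with DESeq2 1.42.0 as an alternative. Sums per library were compared by exact two-sided permutation (smallest p 0.1). Tests were tried on simulated data. Python 3.11.15, pandas 2.3.3 and matplotlib 3.10.9 were used for tables and figures. Named transcripts were the members of 8 lncRNA lists, the 10 most abundant, per direction up to 8 with the smallest p past the study's thresholds without overlap, those in the study's network, and the 5 most variable with a mean of at least 1 FPKM. Others are marked in the text as chosen after their values were seen, or are examples of a described group. The members, lists and marker sets were chosen with earlier results of these data known. Erythroid markers (4 of 8 found) summed to 1035 to 1288 FPKM in UAC and 650 to 1251 FPKM in CON libraries, and adipocyte markers to 35.7 to 58.2 FPKM in UAC and 35.6 to 56.5 FPKM in CON libraries. One marker fixed for B and plasma cells was left out of its sum for a reason unrelated to its values and is not reported here. Alternatives were other pseudocounts, filters, scalings, a robust variance model, a replicate block and leaving out each replicate.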

Additional observations from a re-analysis of the deposited data

How the results depend on the processing

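LOC102549714 had an adjusted p under 0.05 in all 14 alternatives run for it. Each of them keeps the listed absence in the CON libraries, so this count adds little support. With a pseudocount of 1, the members past the study's thresholds were 7 higher and 1 lower, and all transcripts 80 and 43. With a mean FPKM of at least 1, which kept 136 members, they were 7 and 1, and all 9848 transcripts gave 150 and 61. With no filter, all 3303 annotated transcripts were tested, most of them not members. Of these, 2 had an adjusted p under 0.05, and 21 were higher and 12 lower past the study's thresholds. All 15530 transcripts then gave 202 higher and 84 lower. Leaving out each replicate in turn gave 1 to 2 members with an adjusted p under 0.05, 15 to 20 higher and 5 to 21 lower past the study's thresholds, 225 to 299 higher and 89 to 190 lower among all transcripts, and among member genes 0 to 1 with an adjusted p under 0.05, 13 to 24 higher and 4 to 18 lower. DESeq2 called 12 member genes. Without CON replicate 3, the only CON library where it was present, AABR07044414 differed by 5.93 (limma adjusted p = 0.0370). Median-ratio scaling moved the median difference of all transcripts from 0.0946 to 0.000303 and gave 191 higher and 148 lower among all transcripts past the study's thresholds, against 243 and 109, and 14 higher and 7 lower members; quantile normalization gave 181 and 156, and 14 and 7. The difference in summed FPKM was 27.9 without the 10 most abundant members and 29.2 without AC134224 and LOC102549714, and ran from 158 to 255 with each replicate left out. That in detected members ran from 0.333 to 12.8.

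Whether the replicate numbers pair the libraries is not given. The paper's methods describe harvests from each group in repeated rounds, without linking them to library numbers. Deviations from the group means of libraries with the same number correlated at -0.0393, -0.0647 and -0.0132 over members, and no library correlated best with its own number. Such correlations over low and noisy levels cannot decide whether libraries shared a round. The replicate block gave 1 member with an adjusted p under 0.05, 11 higher and 5 lower past the study's thresholds, and 8 lower member genes, against 5 without it. The median coverage of all members was 2.57-fold, and its part in the number of calls was not tested.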

Other observations

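The locus with the most members was AABR07058158, an assembled gene on the plus strand (chr7:102648881-102869845) whose nearest protein-coding gene is Myc, a transcription factor of cell growth. It held 20 transcripts, 16 of them members, and 0 of these had an unadjusted p under 0.05 (limma), against 7.27% of all transcripts tested. The members of 1 gene are too few to read this count. Gene counts were 519, 3905 and 3180 in UAC and 2641, 3457 and 605 in CON libraries, so that 1 library of each group stood far below the others. The summed FPKM of its members did not share that pattern, at 8.36, 9.21 and 6.91 FPKM in UAC and 5.93, 8.14 and 8.52 FPKM in CON libraries.

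Near RT1 genes, the rat major histocompatibility complex, 13 members lay within 100000 bases. Their median difference was -0.37 on the log2 scale, and an unadjusted p under 0.05 (limma) was reached by 0 in the higher and 2 in the lower direction, a count that rests on few members, against 7.27% of all transcripts in either direction. LOC102549726, which lies among RT1 genes on chromosome 20, held 3 members of unlike pattern. ENSRNOT00000081704 had 1.72, 1.89 and 1.40 FPKM in UAC and 2.60, 3.39 and 3.01 FPKM in CON libraries, without overlap (-0.81 ± 0.17 (SE), limma adjusted p = 0.519). ENSRNOT00000087471 had 5.95, 3.49 and 4.94 FPKM in UAC and 4.03, 4.10 and 4.69 FPKM in CON libraries, with overlap, and the gene as a whole differed by -0.13. These segments resemble each other, so reads may be shared among them.

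AABR07030366 on chromosome 10 (chr10:82738276-82743304) lies 2497 bases from Col1a1, which encodes a chain of type I collagen, and was named after its gene-level value was seen. The member had 0.301, 0.273 and 0.516 FPKM in UAC and 0.341, 0.200 and 0.391 FPKM in CON libraries, with overlap. Its gene, which has 3 transcripts, had 1159, 1167 and 1253 counts in UAC and 2914, 2410 and 2214 counts in CON libraries (-0.98 ± 0.14 (SE), edgeR adjusted p = 0.306), and every UAC library was below every CON library. DESeq2 called this gene.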
